A study of Homo sapiens with 8 samples.

Results

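The human keratin genes of chromosomes 12 and 17 were examined in bulk ATAC-seq peaks of HepG2, a human liver cancer cell line. Members were the protein-coding genes of GENCODE 44 on these chromosomes whose symbol is KRT followed by a number and at most one letter from A to C. They came to 55 of 20033 protein-coding genes annotated on chromosomes 1-22, X and Y, with 27 genes on chromosome 12 and 28 on chromosome 17. The study prepared 8 bulk libraries from wild-type HepG2 cells fixed with 0.1, 0.5, 1 or 5% formaldehyde (FA), which were then preserved by freezing, with cryoprotection (cryopreserved) or without it (flash-frozen). Only the library of cryopreserved cells fixed with 0.1% FA was analysed here, and its list held 60628 peaks. As HepG2 is a tumour line, the values stand for this line and not for normal hepatocytes or for skin. There was no replicate, so no test was made, and each interval is an exact binomial interval at the 95% level for counting error alone.

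Keratins are the intermediate filament proteins of epithelial cells, and each filament is built from pairs of a type I and a type II keratin. Type II genes form the cluster on chromosome 12 and type I genes the cluster on chromosome 17, with one exception, the type I gene KRT18, which lies next to its partner KRT8 on chromosome 12. Simple epithelia such as the liver use KRT8 and KRT18, and bile ducts add KRT7 and KRT19. KRT20, KRT23 and KRT222 are described below. The rest serve layers of the epidermis or other stratified epithelia, the sheaths of the hair follicle, or the hard shaft of hair and nail.

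ATAC-seq uses the Tn5 transposase to cut accessible DNA, and the fold given for each peak is the authors' enrichment at the peak summit over the local background. A gene was counted as having a TSS peak if a peak overlapped the 1000 bp to either side of its transcription start site (TSS). It was counted as having a peak nearby if a summit lay in the gene or within 5 kb of it. Following the rule, 6 members formed the simple epithelial class (KRT7, KRT8, KRT18, KRT19, KRT20 and KRT23) and 48 the epidermal and hair class. The latter held 22 stratified epithelial, 9 hair follicle sheath and 17 hair shaft keratins. KRT222, a keratin-like gene, was left without a class.

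The sequences at the summits of 2 peaks in the TSS windows of simple keratins are shown first, because both lay inside the gene and not over its start. Each is the 101 bases centred on the summit, read from GRCh38 (hg38) on the strand of the gene, and capitals mark the letters of the searched motifs. The KRT18 window, in intron 1, lies at chr12:52949878-52949978 on the plus strand. The KRT23 window lies at chr17:40936674-40936774 on the minus strand.
KRT18 peak in intron 1: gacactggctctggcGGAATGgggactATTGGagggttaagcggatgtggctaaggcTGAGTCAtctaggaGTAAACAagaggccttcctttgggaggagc
KRT23 peak in exon 2: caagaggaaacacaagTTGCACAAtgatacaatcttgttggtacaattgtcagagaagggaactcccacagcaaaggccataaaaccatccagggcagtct
The KRT18 window had a GC content of 54.5% and held matches of the AP-1, CCAAT, FOXA and TEAD patterns. The KRT23 window had a GC content of 44.6% and held a match of the CEBP pattern.

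Of the 6 simple epithelial keratins, 4 had a TSS peak (66.7%, interval 22.3 to 95.7%), against 61.5% of all protein-coding genes. Of the 48 epidermal and hair keratins, 0 had one, which allows a share of up to 7.40%. This count holds for the canonical start and the 1000 bp window, since KRT12 and KRT15 had a peak at the start of another annotated transcript and a window of 2500 bp took in KRT38. Chromosome 12 and chromosome 17 as a whole stood at 59.3% and 63.7%, so neither carried few TSS peaks in general. The simple keratins thus lay near the background share and the other class far below it. With 6 genes the interval of the simple class is wide, and genes within a cluster share their neighbourhood, so they are not independent draws.

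Each subclass of the epidermal and hair keratins gave the same count. Of 22 stratified epithelial keratins 0 had a TSS peak (up to 15.4%), as did 0 of 9 sheath keratins (up to 33.6%) and 0 of 17 hair shaft keratins (up to 19.5%). Thus the basal pair KRT5 and KRT14, the suprabasal pair KRT1 and KRT10, and the wound-associated KRT6A, KRT6B, KRT6C, KRT16 and KRT17 were all without a peak at the start. Near the edge of the window, KRT23 was inside with a summit 922 bp from its TSS. KRT222 and KRT38 were the nearest outside, with summits at 1381 and 1405 bp, and KRT15 followed at 3129 bp.

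**Figure D1:**
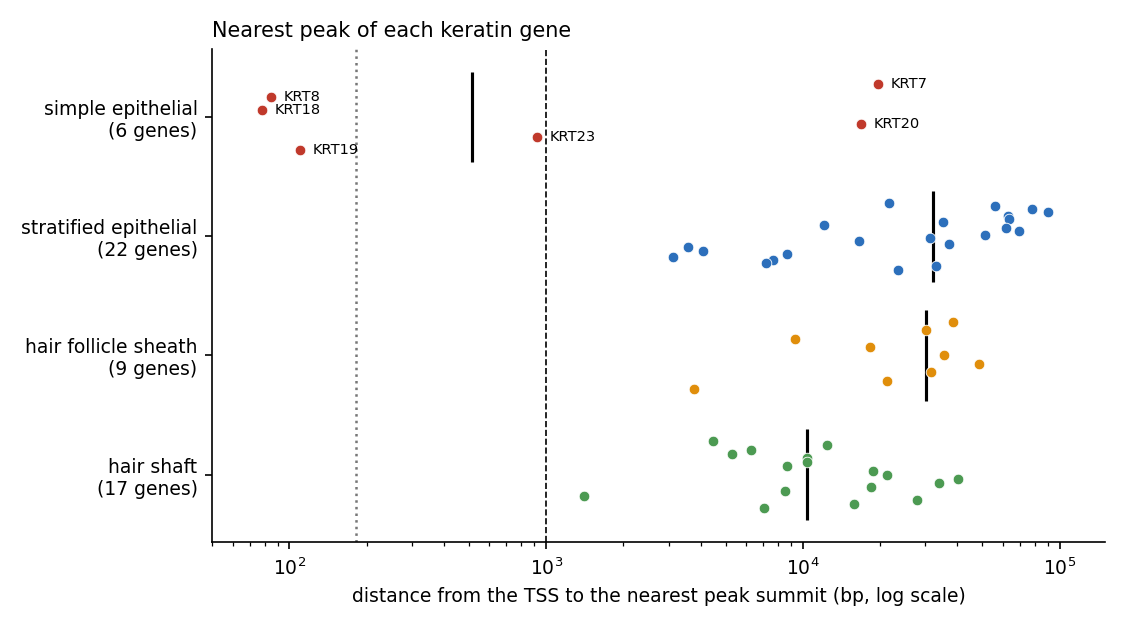
Distance in bp (log scale) from each TSS to the nearest peak summit for the 54 keratin genes with a class, 1 point per gene, black bars being class medians, the dashed line the 1000 bp window and the dotted line the median of protein-coding genes (181 bp). 4 of the 6 simple keratins lie left of the dashed line, and all 48 epidermal and hair keratins lie right of it.

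The median distance from the TSS to the nearest summit was 516 bp for the simple keratins, with a range from 78 bp for KRT18 to 19593 bp for KRT7. For the epidermal and hair keratins it was 19949.5 bp, from 1405 bp for KRT38 to 89947 bp for KRT6A. Within that class the stratified epithelial genes had a median of 32132 bp, the sheath genes 30059 bp and the hair shaft genes 10348 bp. The distances of the simple keratins fell into separate ranges, with 4 genes at 922 bp or less and KRT7 and KRT20 at 16891 bp or more.

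KRT8 encodes the type II keratin of hepatocytes (ENSG00000170421.13, chr12:52897187-52949954, minus strand). Its TSS peak was 300 bp wide with the summit 85 bp upstream of the TSS. The fold was 14.4, the -log10 q 45.2, and 53 fragments lay over the summit against a local background of 2.76. Among protein-coding genes that had a TSS peak, its fold exceeded that of 31.3%, while its fragment number exceeded that of 60.9%. KRT8 was thus below the median of these genes by fold and above it by fragments.

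Further peaks lay around KRT8. In its intron 1 there were peaks 1076 and 1506 bp into the gene, with folds of 6.74 and 6.86. A peak 9562 bp past the start, downstream of the gene, had a fold of 11.9. Between KRT8 and KRT18 lay peaks 16039, 20205, 21172 and 22470 bp upstream of the KRT8 TSS, with folds of 9.93, 4.53, 8.31 and 12.1. One of these, at 21172 bp, was 663 bp wide, against a median of 197 bp over the keratin peaks. GENCODE assigns this interval to KRT8 through a long transcript that reaches into KRT18, so these 4 peaks count as KRT8 intron peaks by the gene span and lie upstream of its canonical transcript.

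KRT18, the type I partner of KRT8 (ENSG00000111057.11, chr12:52948871-52952906, plus strand), had 2 peaks in its TSS window. The first had its summit 78 bp upstream of the TSS, a fold of 8.03, a -log10 q of 22.1 and 38 fragments. The second, from 52949809 to 52950064, had its summit 810 bp downstream in intron 1, a fold of 10.6, a -log10 q of 35.5 and 51 fragments. The intronic peak was thus the higher of the pair by fold and by fragments. Its fold exceeded that of 15.5% of the coding genes having a TSS peak and its fragment number that of 58.3%. Another peak, 3079 bp upstream of the TSS and 496 bp wide, had a fold of 11.3 and 52 fragments. These 3 peaks also lay within the GENCODE span of KRT8 or its 5 kb flank and were counted once in totals. The span of KRT8, on the minus strand, begins at 52949954. The intronic KRT18 peak thus also covered that outer KRT8 start, with its summit in a KRT8 exon, and cannot be given to KRT18 alone.

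KRT19, a type I keratin of ducts and other simple epithelia with a very short tail (ENSG00000171345.13, chr17:41523617-41528308, minus strand), had the highest TSS fold among the keratins. Its peak had the summit 110 bp upstream of the TSS, a fold of 18.8, a -log10 q of 48.2 and 46 fragments. Its fold exceeded that of 54.7% of the coding genes having a TSS peak and its fragment number that of 51.8%, so it lay close to the middle on both measures. A small peak 2055 bp upstream had a fold of 5.19 and 12 fragments. A peak 6289 bp past the start, with a fold of 12.4 and 22 fragments, lay downstream of KRT19 and 3129 bp upstream of the canonical TSS of KRT15, its neighbour expressed in basal layers.

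KRT23, a type I keratin of simple epithelia (ENSG00000108244.17, chr17:40922700-40937646, minus strand), had a weak peak. It spanned 40936703 to 40936922 with the summit 922 bp downstream of the TSS in exon 2, a fold of 6.04, a -log10 q of 6.02 and 8 fragments. The fold exceeded that of 1.94% of the coding genes having a TSS peak and the fragment number that of 1.82%, so it stood at the low end of such genes. In intron 2, another peak 4908 bp from the TSS had a fold of 5.89 and 8 fragments. No peak lay over the KRT23 start itself.

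KRT7, the type II keratin of ducts (chr12:52232520-52252186, plus strand), and KRT20, a type I keratin of the gut lining (chr17:40875889-40885242, minus strand), had 0 peaks in the gene or within 5 kb. The nearest summit to the KRT7 TSS was 19593 bp away and that to the KRT20 TSS 16891 bp. Over the 4 simple keratins with a TSS peak, the median fold of the highest TSS peak was 12.5. This was below the 17.9 of all protein-coding genes with one (quartiles 13.0 and 22.8). Fragment numbers mostly went the other way. KRT8 (53), KRT18 (51) and KRT19 (46) lay above the median of 44 of such genes, and KRT23 (8) lay below it. ATAC-seq of a bulk culture cannot tell apart a site open in few cells from a site weakly open in many.

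**Figure D2:**
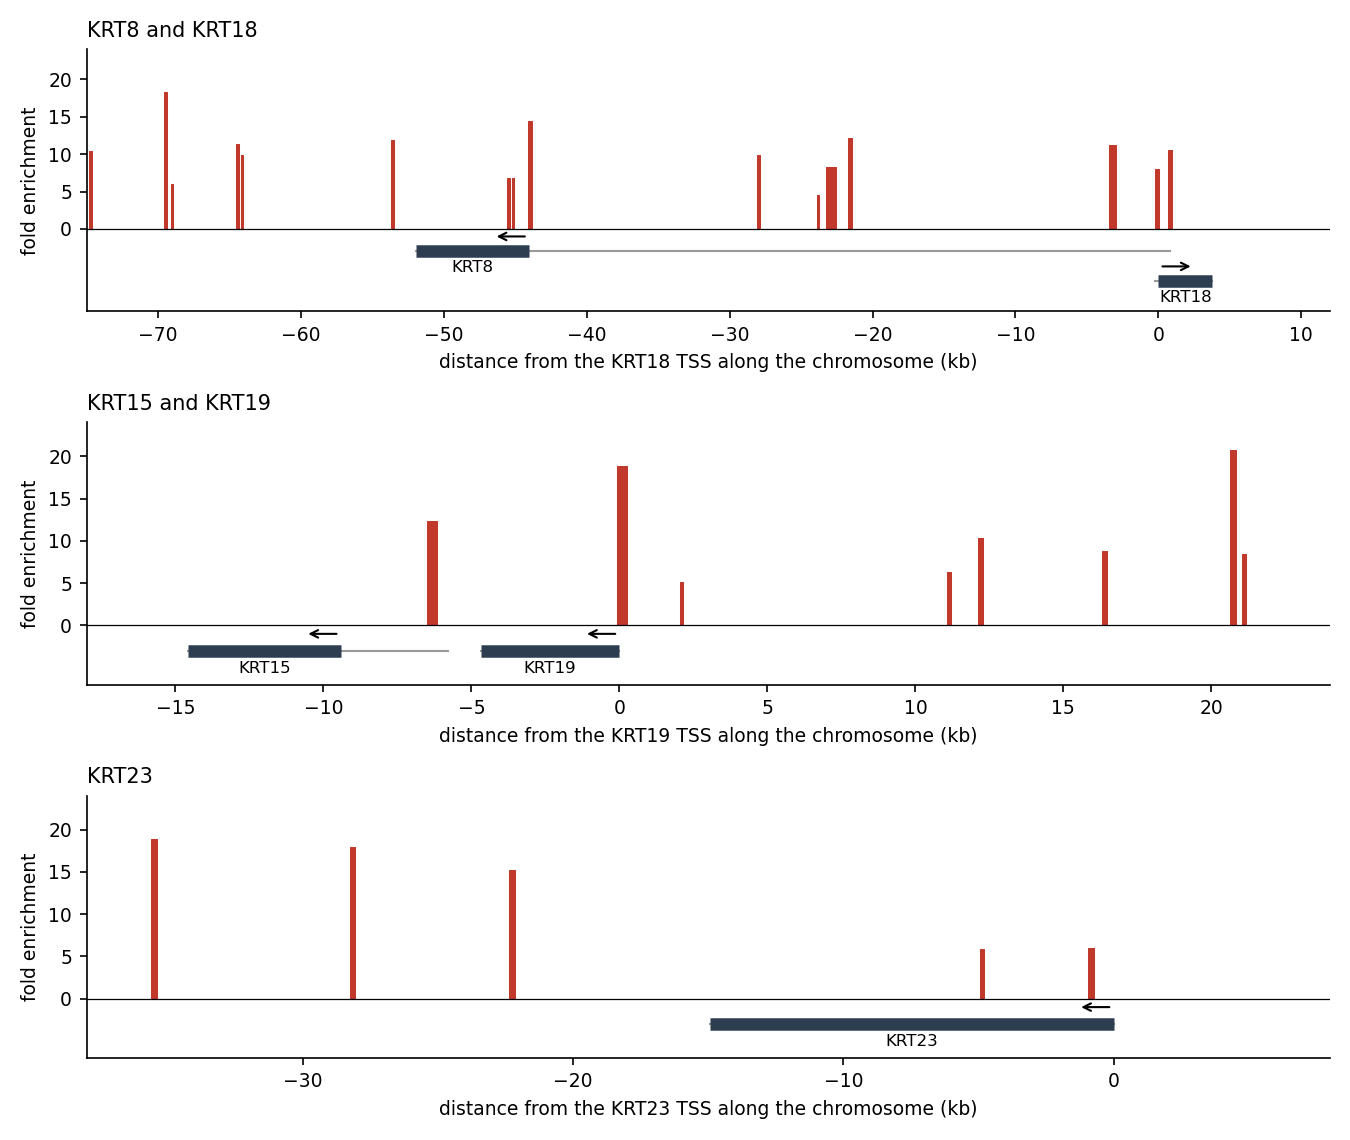
Peaks around KRT8 and KRT18, KRT15 and KRT19, and KRT23, as bars drawn to their width at their distance in kb from the TSS named on the axis (x) with their fold enrichment (y); dark bars are canonical transcripts, thin lines GENCODE gene spans, and arrows start at the TSS and point along the gene. KRT8 (14.4), KRT18 (8.03) and KRT19 (18.8) have a peak over the TSS, while the other KRT18 peak of the TSS window (10.6) and that of KRT23 (6.04) lie inside the gene.

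A summit lay in or within 5 kb of 19 of the 55 keratin genes (34.5%, interval 22.2 to 48.6%), against 81.9% of all protein-coding genes. Because keratin genes are short, the same share was taken over the 4244 protein-coding genes of 4625 to 14528 bp, the middle 80% of keratin lengths, where it was 74.3%. By class it was 4 of 6 simple keratins and 14 of 48 epidermal and hair keratins (29.2%, interval 16.95 to 44.1%), besides KRT222. With a flank of 2 kb it was 4 and 7 genes, against 78.9% of all protein-coding genes, and in the gene body alone 3 and 6, against 62.4%. With 5 kb, the epidermal and hair genes were 6 of 22 stratified epithelial, 2 of 9 sheath and 6 of 17 hair shaft genes. In all, 6 of 27 genes on chromosome 12 and 13 of 28 on chromosome 17 had such a peak.

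Without any peak in or near the gene were 34 epidermal and hair keratins. Among stratified epithelial keratins these were KRT1, KRT2, KRT3, KRT4, KRT5, KRT6A, KRT6B, KRT6C, KRT9, KRT16, KRT17, KRT24, KRT76, KRT77, KRT78 and KRT79. Among sheath keratins they were KRT25, KRT26, KRT27, KRT71, KRT73, KRT74 and KRT75. Among hair shaft keratins they were KRT31, KRT32, KRT33A, KRT33B, KRT34, KRT35, KRT40, KRT81, KRT83, KRT84 and KRT85.

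The 31 distinct peaks near keratins had a median fold of 10.2, from 4.53 to 27.4, and a median of 25 fragments at the summit. Of these, 16 lay near simple keratins, with a median fold of 9.12, and 15 near epidermal and hair keratins, with a median of 12.4. The peak shared by KRT15 and KRT19 is in both numbers and that of KRT222 in neither. Of the 16 near simple keratins, 11 lay in the long GENCODE span of KRT8 or within 5 kb of it. The peaks of the epidermal and hair class were thus fewer per gene, and their median fold was the higher. Their median fragment number was the lower, at 22 against 25.5 for the peaks near simple keratins, so the order depended on the measure. The peaks of the epidermal and hair class lay away from the canonical starts of their genes, which restates their count of 0 TSS peaks. Of the 16 places of these peaks relative to epidermal and hair genes, 7 were downstream, 4 intronic, 3 exonic and 2 upstream. Relative to simple genes, 5 places were at the TSS, 8 intronic, 2 exonic, 2 downstream and 2 upstream, so most of these too lay away from a start.

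Some of these peaks lay at the TSS of another gene. By the canonical start of each gene, 5 of the 31 lay at a keratin TSS, 10 at the TSS of any annotated gene and 21 at none. The KRT12 and KRT15 peaks, counted among the 21, lay at the start of another annotated transcript. The KRT10 peak, in exon 7 with a fold of 19.9, lay at the TSS of the antisense gene KRT10-AS1. The upstream peak of the sheath keratin gene KRT28, with a fold of 20.6, the KRT86 peaks in intron 2 and exon 11, with folds of 11.5 and 5.01, and the downstream peak of KRT80, with a fold of 19.05, each lay at the TSS of a long non-coding RNA gene. The canonical KRT86 transcript is 34.5 kb long and runs across the hair keratin gene KRT81 on the other strand. ATAC-seq carries no strand, so a peak shared by overlapping genes belongs to neither by itself.

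The highest folds lay downstream of genes. A peak 7186 bp past the start of KRT14, the type I keratin of basal epidermis, had a fold of 27.4 and 43 fragments. It lay at no canonical TSS. A peak 10046 bp past the start of the hair keratin gene KRT39 had a fold of 24.5 and 62 fragments, the most of any keratin peak, and another 8672 bp past it had a fold of 6.21. The peak between KRT36, a hair keratin gene, and KRT13, expressed in the lining of the mouth, had a fold of 22.9 and 38 fragments.

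The other peaks near epidermal and hair keratins were mostly lower. Downstream of the hair keratin gene KRT37 the fold was 14.6 with 23 fragments. Its neighbour KRT38 had a peak in intron 2 with a fold of 9.14 and 10 fragments, and KRT82 one in intron 7 with 8.42 and 9. Downstream of KRT72, a sheath keratin gene, the fold was 10.2 with 11 fragments. The lowest fragment numbers were 6 for KRT12, the keratin of the cornea (exon 6, fold 5.95), 6 for KRT222 (1381 bp upstream, fold 5.95) and 5 for the exon 11 peak of KRT86. At such numbers a gene without a call may have had fewer fragments than could be called, so absence of accessibility is not shown.

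**Figure D3:**
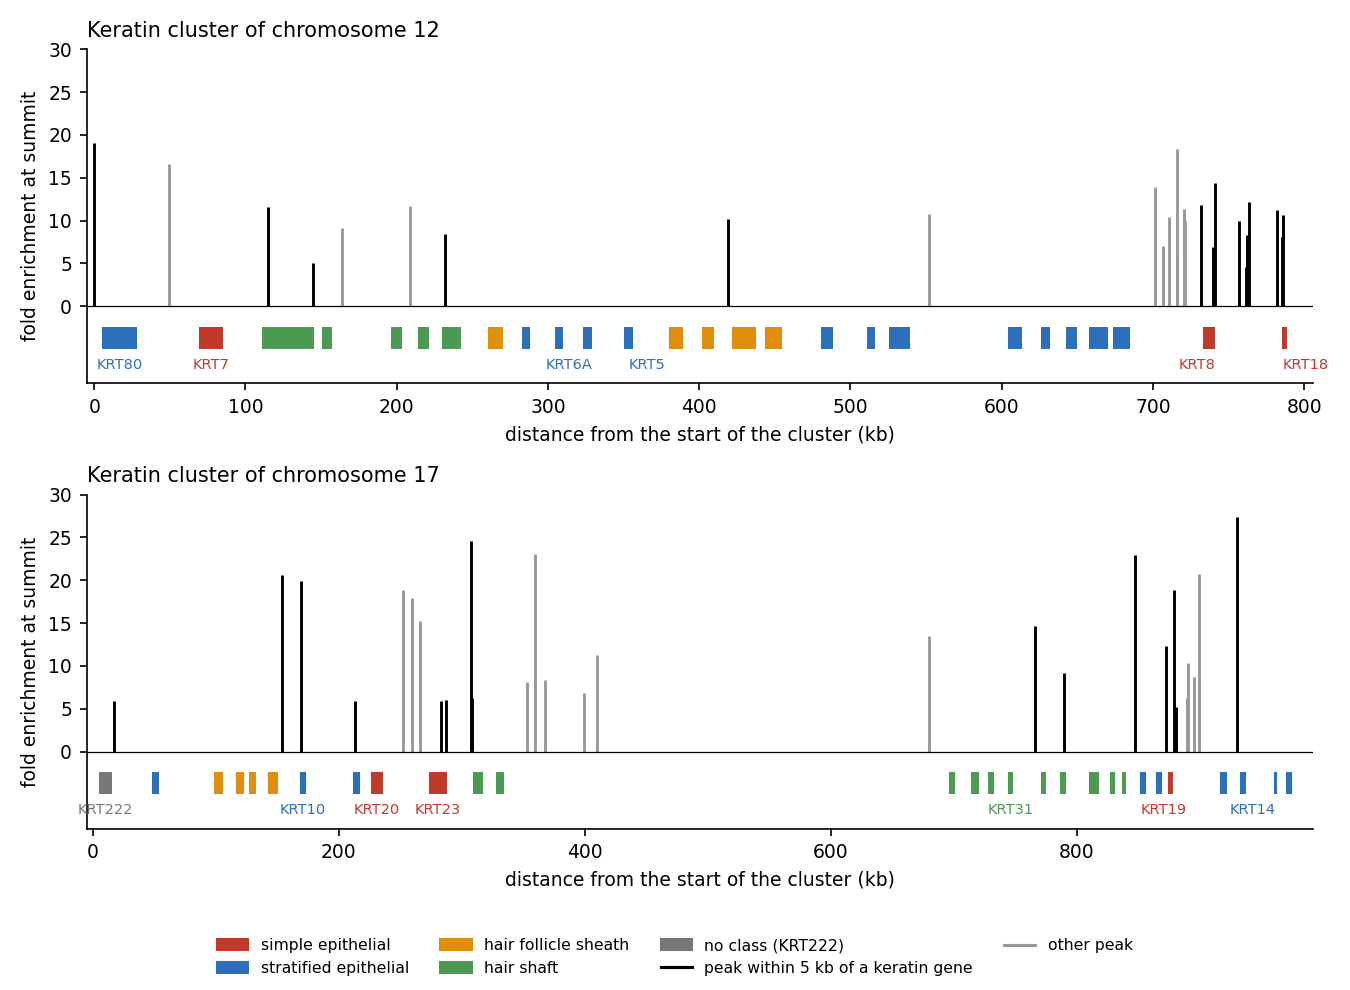
Peaks along both keratin clusters by distance in kb from the cluster start (x axis) and fold enrichment at the summit (y axis), with canonical transcripts as boxes coloured by class beneath. Peaks crowd around KRT8 and KRT18 on chromosome 12 (11 peaks in 65.7 kb), and the longest stretches without a peak measure 187 kb on chromosome 12 and 270.0 kb on chromosome 17.

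The chromosome 12 cluster, chr12:52163996-52957906 with the 5 kb flanks, held 27 peaks in 794 kb, or 3.40 per 100 kb, against 2.06 on chromosome 12 as a whole. These were unevenly spread. Of the 27, 11 lay in the 65.7 kb from KRT8 to KRT18, or 16.7 per 100 kb, and 7, with folds from 6.05 to 18.3, in the 38.1 kb between KRT78 and KRT8 outside the flanks of both genes. The remaining 690 kb, from KRT80 to KRT78, held 9 peaks, or 1.30 per 100 kb, below the value of the chromosome. The 7 peaks between KRT78 and KRT8 came to 18.4 per 100 kb, the highest density of these stretches. The local background at the peaks was higher in both dense stretches than in the remaining one, but did not follow the order of density. Its median was 2.86 from KRT8 to KRT18, 1.11 between KRT78 and KRT8 and 0.198 over the 9 remaining peaks, against 0.564 over chromosome 12, and its part in the number of peaks was not tested.

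The longest stretch of the cluster between summits measured 187 kb, chr12:52396000-52583204, and held KRT75, KRT6B, KRT6C, KRT6A, KRT5, KRT71 and KRT74. Chromosome 12 had 130 stretches at least as long, which covered 43.9% of it, so such a length was not unusual there. Of the 50-base words in the stretch, 4.70% occurred more than once in the genome.

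The chromosome 17 cluster, chr17:40649665-41629842, held 29 peaks in 980 kb, or 2.96 per 100 kb, below the 3.99 of chromosome 17. Its longest stretch without a summit, 270.0 kb, contained 0 keratin genes and held part of the keratin-associated protein genes, which encode the matrix proteins of hair. Chromosome 17 had 30 stretches at least as long, covering 19.4% of it, and 12.4% of the 50-base words of this stretch were repeated. Of the 34 keratin-associated protein genes in the cluster, 2 had a TSS peak, KRTAP3-1 with a fold of 23.1 and KRTAP2-3 with 11.3, against the 61.5% of all protein-coding genes. Their TSS windows hold repeated sequence, with a median of 10.9% and up to 46.5% of 50-base words found more than once in the genome, so lacking peaks are uncertain here too. Between KRT20 and KRT23 lay 3 peaks more than 5 kb from both genes, with folds from 15.2 to 18.9, each higher than the peaks inside KRT23. Between KRT19 and KRT9 lay 5 such peaks, with folds from 6.30 to 20.8.

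Sequence at the starts differed between the classes. The median GC content within 500 bp of the TSS was 62.8% for the simple keratins, 54.1% for the epidermal and hair keratins and 61.3% for all protein-coding genes. The ratio of observed to expected CpG, which is high in CpG islands, had medians of 0.563, 0.262 and 0.725. Of the simple keratins, KRT7, KRT18 and KRT19 had ratios of 0.713, 0.691 and 0.752, KRT20 and KRT8 had 0.435 and 0.344, and KRT23 had 0.262. KRT7 thus had a start of high CpG ratio for a keratin without a peak, and KRT8 a peak at a start of low CpG ratio. The KRT7 ratio was still just below the median of all protein-coding genes.

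**Figure D4:**
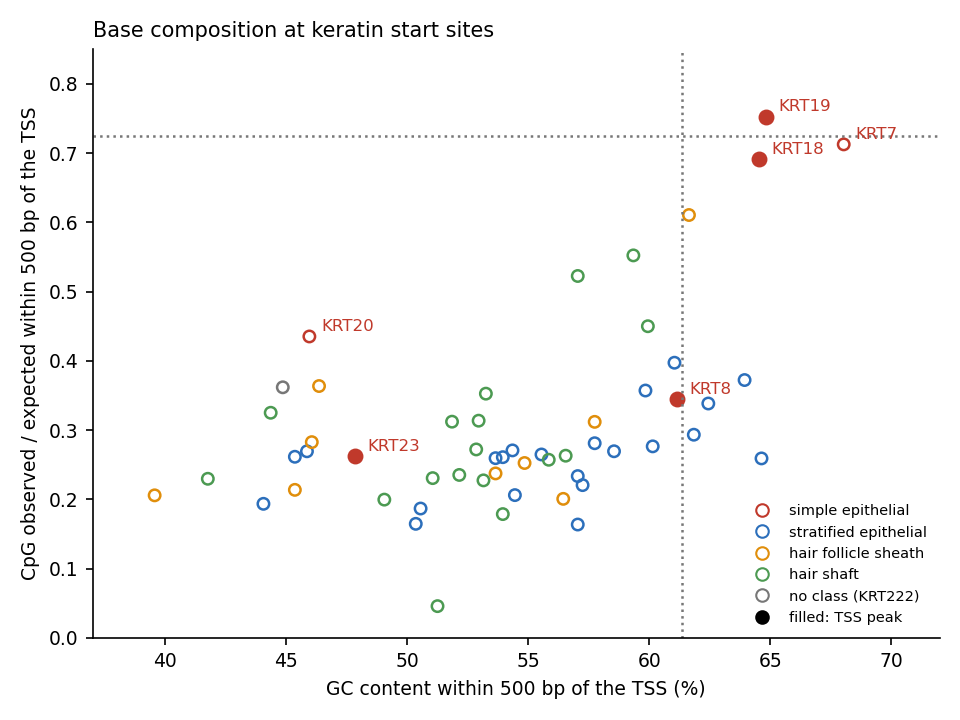
GC content (x axis, %) against the ratio of observed to expected CpG (y axis) within 500 bp of the TSS for the 55 keratin genes, 1 point per gene coloured by class and filled where there was a TSS peak; dotted lines are medians of protein-coding genes (61.3% and 0.725). KRT18, KRT19 and KRT7 lie at the upper right, KRT7 without a peak, and most epidermal and hair keratins lie below a ratio of 0.4.

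Base composition moved with TSS peaks over all genes, so the keratins were set beside genes of like composition. When protein-coding genes were split into 5 equal bins by CpG ratio, the share with a TSS peak was 14.3% in the lowest bin, then 45.6, 78.6, 83.5 and, in the highest bin, 85.3%. Of the epidermal and hair keratins, 34 fell in the lowest bin and 14 in the next, and 0 of either had one. By GC content, 14, 24, 8, 2 and 0 of them fell in bins of rising GC, where 21.2, 60.5, 70.8, 77 and 78.1% of protein-coding genes had a TSS peak. The shares of CpG-poor genes are thus lower than the 61.5% of all genes and still above 0. Of the 3 simple keratins in the middle CpG bin, KRT18 and KRT19 had a TSS peak and KRT7 did not. How far base composition accounts for the class difference was not tested.

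Start sequences of the epidermal and hair class carried a TATA box more often, and those of the suprabasal keratin gene KRT10 and the hair keratin gene KRT31 are shown as examples. Each is the 120 bases from 100 before the TSS, on the minus strand, which is that of the gene, with capitals again on motif letters. They lie at chr17:40822595-40822714 for KRT10 and chr17:41397589-41397708 for KRT31.
KRT10 start: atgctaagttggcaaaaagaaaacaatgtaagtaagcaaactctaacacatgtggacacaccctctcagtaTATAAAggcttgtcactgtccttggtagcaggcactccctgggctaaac
KRT31 start: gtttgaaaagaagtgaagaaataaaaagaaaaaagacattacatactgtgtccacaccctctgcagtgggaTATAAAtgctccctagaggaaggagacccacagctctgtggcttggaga
The letters TATAAA were present from 250 bp before to 50 bp after the TSS, on either strand, in 26 of 48 epidermal and hair keratins (54.2%), in 1 of 6 simple keratins (KRT8) and in 9.72% of all protein-coding genes. On the strand of the gene and starting 20 to 35 bp before the TSS, where a TATA box acts, they were present in 20 of the 48 (41.7%), in 0 of the simple keratins and in 3.90% of all. These 20 were 8 stratified epithelial, 4 sheath and 8 hair shaft genes, KRT10 and KRT31 among them. The KRT8 match lay outside that position, and the search took these exact letters only, so related forms were not counted. The GC box, GGGCGG on either strand, was present in 4 of 6 simple keratins, 9 of 48 epidermal and hair keratins (18.8%) and 61.4% of all.

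**Figure D5:**
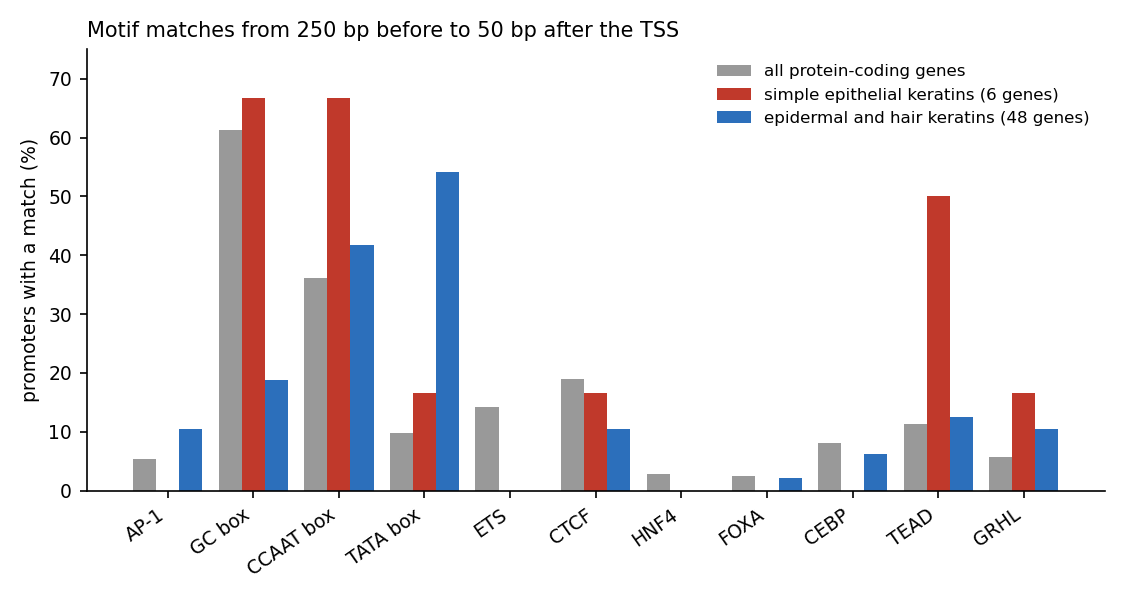
Share of promoters (y axis, %) with a match to each of 11 motif patterns (x axis), from 250 bp before to 50 bp after the TSS, on either strand, for all protein-coding genes and both keratin classes. The TATA box is matched by 54.2% of epidermal and hair keratins against 9.72% of all genes, and the GC box by 18.8% against 61.4%.

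Within 50 bp of the summit of the 31 keratin peaks, the same patterns were searched on both strands. The TEAD pattern GGAATG was present in 10 (32.3%), against 8.22% of all 60474 peaks on chromosomes 1-22, X and Y. These included the intronic KRT18 peak, the intron 2 peak of KRT23, the upstream peak of KRT19 and the downstream peaks of KRT80 and KRT37. CCAAT was present in 7, against 14.3% of all peaks, and AP-1, TGANTCA, in 3, against 5.58%, all near simple keratins. From 250 bp before to 50 bp after the TSS, AP-1 went the other way. It was present there in 0 of 6 simple and 5 of 48 epidermal and hair keratins (10.4%, against 5.45% of all protein-coding genes). The GC box was present in 6, against 17.9%. Of the patterns of liver factors, FOXA, TGTTTAC, was present in 3 (9.68%, against 4.79% of all peaks), CEBP, TTGCNNAA, in 2 (6.45%, against 6.32%) and HNF4, CAAAGTC, in 0 (against 4.14%). CTCF, AGGGGGC, was present in 3 (9.68%, against 6.98% of all peaks) and GRHL, AACNGGT, in 1 (3.23%, against 2.24%). ETS, CCGGAAG, was present in 0 (against 3.18%) and TATAAA in 0 (against 2.00%). The GC box and CTCF patterns can overlap on the same bases, and a match is a description of letters rather than a bound site.

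Keratin genes arose by duplication, so reads from near-identical copies may not map to 1 place. Of the 50-base words within 1000 bp of the TSS, 40.3% were repeated in the genome for KRT81, 39.1% for KRT6C, 35.5% for KRT6B, 22.3% for KRT6A, 21.3% for KRT16, 19.2% for KRT17, 15.1% for KRT14 and 12.8% for KRT34. For these genes the lack of a TSS peak is uncertain. In all, 9 of 55 genes were above 10%, KRT8 with 13.1% among them, and 25 had none. The 31 keratin peaks each had a summit sequence that occurred once.

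Other gene groups place the keratins in the cell. The label of the sample was checked with 18 hepatocyte markers, of which 16 had a TSS peak (88.9%, interval 65.3 to 98.6%). The share over all protein-coding genes, 61.5%, was just below the lower end of that interval. Folds of TSS peaks were 25.4 for the fibrinogen gene FGA, 22.4 for HP, 21.7 for SERPINA1 and 18.9 for TTR. ALB and FGB, which encode albumin and another fibrinogen chain, lacked a TSS peak. Of 20 epidermal differentiation genes, among them FLG, IVL, TGM1 and TP63, 0 had a TSS peak (up to 16.8%), against 61.5% of all genes. This was the same count as for the epidermal and hair keratins. The median GC content of the list was 51.2%, inside the lowest GC bin, where 21.2% of protein-coding genes had a TSS peak. The part of base composition in this count was not tested.

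Other intermediate filament genes had TSS peaks in 7 of 15 cases (46.7%). Their highest folds were 25.1 for SYNM, 18.2 and 18.1 for the lamin genes LMNB1 and LMNB2 and 16.5 for the astrocyte gene GFAP. Without a TSS peak were VIM, the vimentin gene of mesenchymal cells, DES of muscle, and the neuronal NEFL and NEFM. Of genes for plakins and desmosomes, which anchor keratin filaments, 10 of 18 had one (55.6%), with folds of 27.2 for JUP, 26.6 for PPL, 20.9 for DST and 17.1 for PKP2. The epidermal desmosomal genes DSG1, DSG3, DSC1 and DSC3 lacked one, whereas DSC2, DSG2 and EVPL of the same list had one, with folds of 14.5, 13.4 and 11.7. Both lists lay below the 61.5% of all genes, within their intervals (21.3 to 73.4% and 30.8 to 78.5%).

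Of 18 regulators of epithelial keratin genes, 7 had a TSS peak (38.9%, interval 17.3 to 64.3%), against 61.5% of all genes. The highest folds were 27.8 for KLF5, 22.1 for ELF3, 21.4 for GRHL1 and 17.4 for SP1. HOXC13, a regulator of hair keratins, and KLF4, a factor of the epidermal barrier, had peaks with folds of 10.5 and 9.07. Without a TSS peak were, among others, GRHL2, OVOL1, TFAP2A and GATA3.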

How the data were processed

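Bulk ATAC-seq was performed by the authors on HepG2 cells, and the peak list of 1 of 8 libraries was used. The authors used cutadapt for trimming, Bowtie2 within snakePipes for mapping to GRCh38 and MACS2 for calling peaks after removal of duplicates. MACS2 was run with its standard parameters according to the methods (version not given in the sources used here). The submitters' processing notes also name bcl2fastq and deepTools 3.5.5. No shift of read ends to the Tn5 cut is mentioned there, and one would move summits by a few bases. The word short in the names of the peaks may mean that the list rests on part of the fragments.

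Per peak, the authors deposited a score (10 times -log10 q, rounded down), the fold enrichment ratio at the summit, the -log10 p-value and -log10 q-value, and the summit position. Total depth was not used here. Fragment numbers and backgrounds were solved from fold and -log10 p, taking the fold as (fragments + 1)/(background + 1) and p as Poisson, which gave 1 whole number for 60390 of 60474 peaks on chromosomes 1-22, X and Y (99.9%, relative tolerance 2e-05). The median was 17 fragments.

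Genes, TSSs and transcripts were those of GENCODE 44, and sequences were read from hg38. Some sequences are not reported here. The CpG and GC windows reached 500 bp to either side of the TSS. The members, gene lists, classes and motifs were chosen with earlier results of these data known. Named were all simple keratins, every other member with a peak nearby, members without a peak as a list, and of each other list up to 4 genes with the highest TSS fold and up to 4 without a TSS peak. HOXC13, KLF4, DSC2, DSG2 and EVPL were named after their values were seen. Epidermal genes named as lacking one are examples, chosen after their values were seen. The CpG ratio bins and the canonical transcript span were added after the data were examined. Scripts were tested on simulated data, where 500 of 500 genes, 4969 of 4970 summits and 200 of 200 planted motifs were recovered. Alternatives were other TSS windows and flanks, summit or overlap, all transcript starts, a -log10 q of at least 5, other composition windows and other classes for KRT23 and KRT80. Tools were samtools 1.23.1 and Python 3.11.15 with matplotlib 3.10.9, scipy 1.17.1, pandas 2.3.3 and numpy 2.4.6.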

Additional observations from a re-analysis of the deposited data

How the results depend on the processing

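Of 57 alternative values, 48 stayed close to the reported value and 9 moved. That 0 reversed carries no weight, since counts, shares, medians and densities have no sign to reverse. The epidermal and hair keratins with a TSS peak numbered 1 with a window of 2500 bp (KRT38), 2 with the start of any annotated transcript (KRT12 and KRT15) and 1 with KRT23 and KRT80 exchanged between classes (KRT23), in place of 0. A window of 500 bp removed KRT23 and left 3 keratins. Among all coding genes, the TSS peak share was 59.2% at 500 bp, 65.6% at 2500 bp and 66.9% with any transcript start. By the gene body alone, 6 epidermal and hair keratins had a peak and 19 peaks were counted, and with a flank of 2 kb 7 such genes had one. Each follows from how the alternative is built, by its window, its starts or its classes. No replicate could be left out, and no paired analysis was possible because there was 1 library. Depth limits the calls, since keratin summits held as few as 5 fragments.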
